A study of Mus musculus with 4 samples.

Results

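Genes for splicing factors and proteins of the small nuclear ribonucleoprotein particles (snRNPs) were examined in activated mouse CD4+ T cells with and without the histone methyltransferase Setd2. They were taken by gene symbol as 8 families (Srsf, Hnrnp, Sf3a and Sf3b together, Snrp, U2af, Prpf, Ptbp and Rbfox), which gave 75 of the 18560 genes in the deposited table, and 74 of them passed the filter on low counts. The 4 RNA-seq libraries came from C57BL/6 spleen CD4+ T cells, started as naive cells and stimulated with αCD3/CD28 to give Th0 cells, which are activated helper T cells not steered to an effector type. There were 2 wild type libraries, numbered 1 and 6, and 2 libraries of the genotype labelled Setd2-CD4 cre, numbered 9 and 12 and called knockout below. In that genotype the Cre recombinase is under Cd4 control, which is active from a thymic stage that also gives rise to CD8 T cells, and all 4 libraries share the strain and the stimulus. Duration is given differently by the sources: titles carry the number 48, treatment labels say 3 days and the design text 2 days. The labels used here give no age. They do not tie replicates to animals or cultures, so each p-value rests on sample-to-sample spread that may be technical.

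Splicing is carried out by the spliceosome, in which the U1 and U2 snRNPs mark the ends of an intron and a tri-snRNP of U4, U6 and U5 joins before the intron is cut out. Each snRNP is an RNA carrying a ring of Sm proteins, or of Sm-like proteins on U6, and particle-specific proteins. SR proteins and hnRNPs bind the transcript and steer which exons are kept. Setd2 places trimethylation on lysine 36 of histone H3, a mark of transcribed gene bodies that reader proteins connect to splicing regulators such as PTB and Srsf1. Gene-level counts as used here measure the abundance of the transcripts of these genes, not how any transcript was spliced. In bulk libraries, fewer cells of a type and less RNA per cell cannot be told apart.

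Total counts ran from 17284613 to 20418766 per library. Levels are CPM, the counts of a gene divided by the TMM-scaled library total. Runs of 4 CPM values list wild type replicates 1 and 6, then knockout replicates 9 and 12. Log2 values are changes from wild type to knockout and carry a standard error (SE) from the edgeR model, n = 2 per group. The targeted gene, Setd2, stood at 157, 174.5, 127 and 113 CPM (log2 -0.47, SE 0.21, edgeR adjusted p 0.421), and its log2 fold change was -0.03 with a trend on gene length removed. A gene-level count adds deleted and remaining exons, so it does not check the genotype labels. Wild type replicate 6 stood apart from the other 3 libraries for these genes. It was the lowest library for 52 of the 74 tested members, against 33.1% of all 12816 genes tested, and lay below wild type replicate 1 for 65 members (87.8%, against 51.0% of all genes). Knockout replicate 12 was the highest for 42 of 74 (35.4% of all genes). Most growth and cell cycle genes did likewise, with 10 of 12 lowest in wild type replicate 6 and summed levels of 8993, 7426, 9557 and 10273 CPM. The other 2, the proliferation genes Mki67 and Top2a, went the opposite way, highest in wild type replicate 6 and lowest in knockout replicate 12. Mki67 stood at 1354, 1435, 1190 and 671 CPM and Top2a at 1131, 1260, 1175 and 922 CPM. The 6 T cell markers summed to 2509, 2523, 2008 and 2313 CPM. The 5 B cell markers were present in each library and summed to 284, 178, 221 and 397 CPM. The 2 CD8 genes summed to 260, 330, 432 and 323 CPM, whereas the 5 myeloid markers summed to 10.7 to 20.5 CPM, the 5 erythroid ones to 2.32 to 20.2 CPM with Hba-a1 at 0 in wild type replicate 1 and knockout replicate 9 and Hbb-bt at 0 in the latter, and the 3 NK cell ones to 2.34 to 5.16 CPM. The part that these differences between libraries have in the results below was not tested.

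No member of the families passed the edgeR quasi-likelihood test at an adjusted p under 0.05. Across all genes that test called 0.0078% higher and 0.0% lower, and among members the smallest adjusted p was 0.395. DESeq2 and limma-voom also called 0 members, DESeq2 calling 0.729% of all genes higher and 0.804% lower. At an unadjusted p under 0.05 there were 8 members higher (background 6.23% of all genes) and 0 lower (background 5.73%). These were Snrpa, Snrpa1, Snrpd1, Snrpd3, Sf3a2, Sf3b4, U2af1 and Hnrnpab. The knockout pair lay wholly above the wild type pair for 22 members (25.4% of all genes) and below them for 5 (24.3% of all genes). Of the 74 members, 56 had a log2 fold change above 0, against 49.8% of all genes, and the median was 0.17 against a median of 0.0 for all genes. The gap between the 2 wild type libraries was wider than the gap between the group means for 50 of the 74 members (67.6%, against 47.1% of all genes). Without wild type replicate 1 the median was 0.32 and 2 members were called, Snrpa1 and Snrpd3 (0.765% of all genes higher and 0.546% lower). Without wild type replicate 6 the median was 0.07 and no member was called (0.172% of all genes higher and 0.0624% lower).

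**Figure D1:**
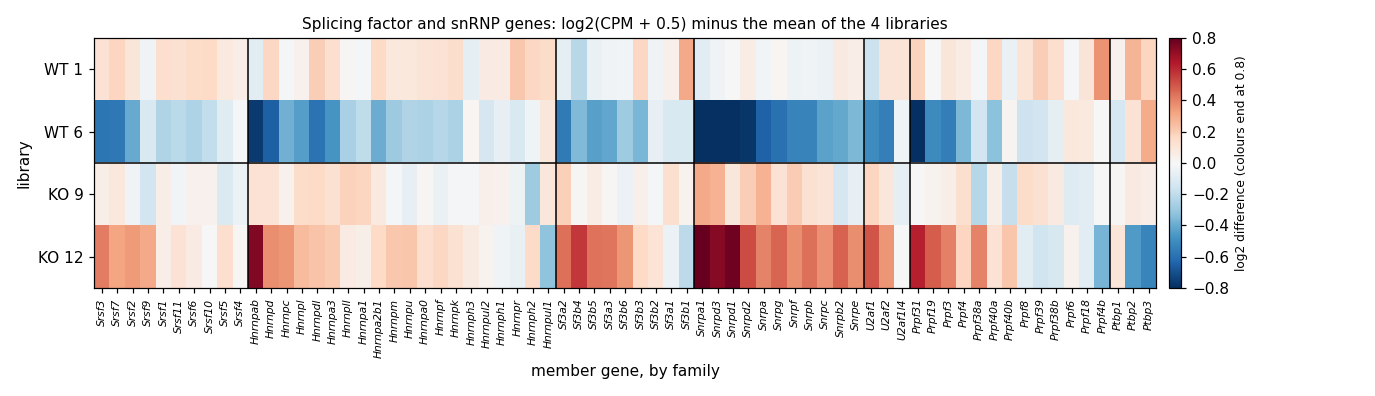
Each column is 1 of the 69 tested members with a mean of at least 5 CPM, grouped by family (Srsf, Hnrnp, Sf3, Snrp, U2af, Prpf and Ptbp from left to right), and each row is a library. Colour is log2(CPM + 0.5) minus the mean of the 4 libraries for that gene; wild type replicate 6 is the blue row for most members and knockout replicate 12 the red one, most strongly in the Snrp family.

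Gene length has to be set beside these values. Over all genes tested, the median log2 fold change went from 0.38 below 1 kb of effective length to 0.22 at 1 to 2 kb, 0.0 at 2 to 4 kb, -0.24 at 4 to 8 kb and -0.48 over 8 kb. Effective length here is the transcript length implied by the deposited counts and FPKM. The members followed the same order up to 8 kb, with medians of 0.56 for 10 members under 1 kb, 0.33 for 16, 0.10 for 36 and 0.08 for 11 at 4 to 8 kb. The single member over 8 kb, Rbfox1, is nearly silent in these cells. Spearman's rho between length and log2 fold change was -0.51 across the 74 members and -0.39 across all genes, given as a description across genes that share the same 4 libraries. With a smooth trend on length removed from each library, the members' median was 0.13, with 50 of 74 above 0 (49.9% of all genes), and no member was called.

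**Figure D2:**
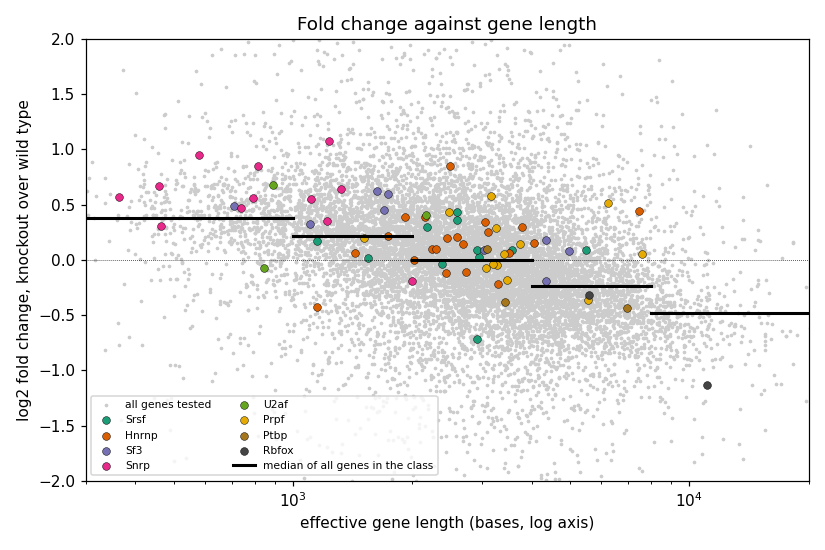
The log2 fold change of each gene is plotted against its effective length on a log axis, with all tested genes in grey, members coloured by family and black lines for the median of all genes in 5 length classes. Members under 1 kb, mostly Snrp genes, lie above the class median line of 0.38 more often than below it, as do long members at the line of -0.24. Genes outside the drawn range of -2 to 2 are not shown.

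The Snrp genes encode the Sm ring proteins and the proteins particular to U1 and U2, and they had the highest median of the 8 families, 0.56. Leaving out wild type replicate 6 gave 0.33, and leaving out wild type replicate 1 gave 0.87. Of 12 tested, 11 were above 0, against 49.8% of all genes and 80.6% of all genes under 1 kb. The knockout pair lay wholly above the wild type pair for 9 (25.4% of all genes). The Snrp genes are also the shortest family, with a median effective length of 804 bases. With the length trend removed their median was 0.26, with 10 of 12 above 0 (49.9% of all genes). It was then no longer the highest, since U2af was at 0.31 and Sf3 at 0.27. Snrpa1, the U2 A' protein that holds the U2 RNA together with the U2 B'' protein (gene 68981, GRCm38.p6 chr7:66060336-66074587), stood at 71.5, 36.8, 93.9 and 135 CPM. The groups did not overlap, but the wild type libraries differed from each other nearly as much as the groups did. The means were 54.1 ± 24.5 and 114.5 ± 29.1 CPM (SD, n = 2), or log2 1.08 (SE 0.35) at edgeR p 0.0155 (adjusted p 0.395). It was 1.64 without wild type replicate 1 (edgeR adjusted p 0.0365), 0.68 without wild type replicate 6 and 0.82 with the length trend removed. Snrpb2, the U2 B'' protein that binds as its partner and has a similar length, stood at 68.1, 48.6, 58.8 and 90.04 CPM, so its groups overlapped (log2 0.35, SE 0.28).

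The Sm ring is made of the 7 proteins that assemble around the snRNA. The levels of all but Snrpe were higher in each knockout library than in either wild type library (25.4% of all genes). Snrpd3 (gene 67332, chr10:75518042-75535440) stood at 92.6, 47.8, 114.6 and 157 CPM, or log2 0.95 (SE 0.34, edgeR p 0.024, adjusted p 0.413). Without wild type replicate 1 it was 1.51 with an edgeR adjusted p of 0.047, and without wild type replicate 6 it was 0.55. Snrpd1, another gene of the ring (gene 20641, chromosome 18, 10617796 to 10628230), stood at 101.9, 55.4, 108.5 and 175 CPM (log2 0.85, SE 0.35, edgeR p 0.0442). It was 0.47 without wild type replicate 6, 0.47 without knockout replicate 12 and 1.35 without wild type replicate 1. With the length trend removed Snrpd1 was at 0.49. In both genes wild type replicate 6 was far below the other 3 libraries and knockout replicate 12 above them, and for Snrpd1 knockout replicate 9 was close to wild type replicate 1. Snrpd2 followed at 0.67 (SE 0.31), Snrpg at 0.57 (SE 0.27), Snrpf at 0.56 (SE 0.24) and Snrpb at 0.55 (SE 0.25). With the length trend removed they were at 0.33, 0.25, 0.22 and 0.27, in that order. Snrpe had the highest FPKM of the family, a mean of 195.5, and overlapped at 93.3, 70.05, 85.9 and 116.5 CPM, with log2 0.31 (SE 0.25), or -0.06 with the length trend removed. Snrpn, a form of Snrpb best known from brain and from an imprinted locus, stood at 0.254, 0.809, 0.522 and 0.413 CPM and was thus nearly silent. It overlaps Snurf in the annotation, so the estimated counts of the pair are uncertain.

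The ring with Snrpn summed to 733.8, 472.4, 808.2 and 1060 CPM. The U1 proteins showed the same order of libraries. Snrpa, the U1 A protein (gene 53607, chr7:27187006-27196271), stood at 127, 82.3, 157 and 171 CPM, or log2 0.64 (SE 0.26, edgeR p 0.0398, adjusted p 0.413), and Snrpc, the U1 C protein, had 0.47 (SE 0.23). Leaving out wild type replicate 6 put Snrpa at 0.36, and leaving out wild type replicate 1 at 0.99. With the length trend removed Snrpa was at 0.41 and Snrpc at 0.11. The Snrnp genes, whose symbols the family names do not match, were looked at after the values of the members were seen. Of 7 tested, 6 were above 0 with a median of 0.25, or 0.04 with the length trend removed, and the U1 protein gene Snrnp70 stood at 310, 279, 318 and 381 CPM (log2 0.25, SE 0.21).

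The subunits of SF3a and SF3b, the complexes with which the U2 snRNP grips the branch point, had their highest fold changes among the shorter genes. All 3 SF3a genes were above 0, with a median of 0.45, and 5 of the 6 SF3b genes, with a median of 0.25. Removing the length trend gave medians of 0.30 for SF3a and 0.12 for SF3b. Sf3a2 (gene 20222, chr10:80798735-80804922) stood at 163, 116, 196 and 233 CPM, so the groups did not overlap (log2 0.62, SE 0.25, edgeR p 0.0371, adjusted p 0.413). Sf3a2 was at 0.39 without wild type replicate 6 and at 0.44 with the length trend removed. Sf3b4 (gene 107701, chr3:96172506-96177564), a small RNA-binding subunit, stood at 101, 92.0, 119 and 174 CPM (log2 0.60, SE 0.25, edgeR p 0.0431, adjusted p 0.414). Most of that difference lay in knockout replicate 12, and without it the log2 fold change was 0.30. Sf3b4 was at 0.43 with the length trend removed. Sf3b1, the large subunit that holds the branch point adenosine and is a known target of mutation in blood disorders, stood at 579.8, 432, 479 and 407 CPM. Its groups overlapped, with log2 -0.19 (SE 0.23), or -0.03 with the length trend removed. Sf3b2, with the highest FPKM of the family (mean 128.7), differed little, at 384, 374, 387 and 422 CPM. The count ratio of Sf3b4 to Sf3b1 was thus 0.174 and 0.213 in wild type and 0.247 and 0.427 in knockout libraries. The effective lengths of these genes are 1738 bases for Sf3b4 and 4346 bases for Sf3b1, and over all genes the medians of their length classes were 0.22 and -0.24.

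The U2AF genes gave a contrast at matched length. U2AF is the heterodimer that recognises the end of the intron, with U2af2 on the pyrimidine tract and U2af1 on the AG, and U2af1l4 encodes a paralogue of the U2af1 subunit. U2af1 (gene 108121, chr17:31647081-31659148, effective length 891 bases) stood at 121, 96.0, 153 and 193 CPM, or log2 0.68 (SE 0.24, edgeR p 0.0217, adjusted p 0.413). It was 0.52 without wild type replicate 6, 0.50 without knockout replicate 12, 0.85 without wild type replicate 1 and 0.34 with the length trend removed. U2af1l4 (gene 233073, chr7:30563340-30565364, effective length 844 bases) stood at 23.2, 21.1, 20.5 and 21.7 CPM (log2 -0.07, SE 0.22, or -0.40 with the length trend removed). The groups did not overlap for U2af1 and overlapped for U2af1l4. The count ratio of U2af1 to U2af1l4 was 5.21 and 4.55 in wild type and 7.49 and 8.91 in knockout libraries, and the difference between their fold changes was not tested. U2af2 stood at 349, 223, 346 and 414.5 CPM, with overlapping groups (log2 0.41, SE 0.27), since wild type replicate 1 was level with knockout replicate 9.

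**Figure D3:**
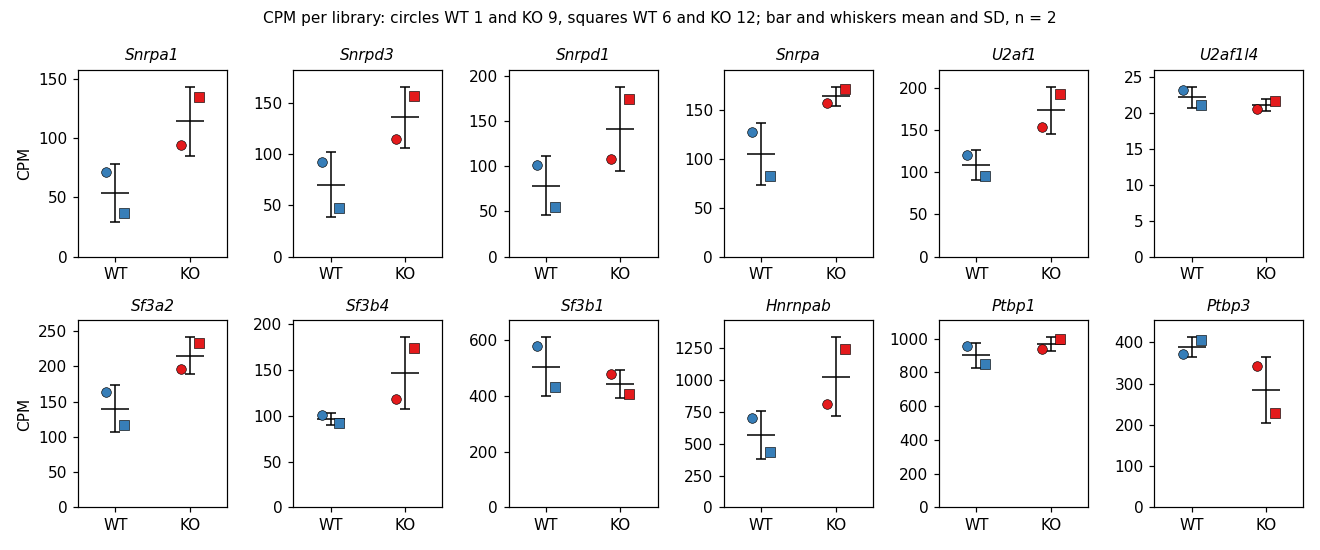
CPM per library is drawn for 12 members, with wild type in blue (circle replicate 1, square replicate 6) and knockout in red (circle replicate 9, square replicate 12), and with the mean and SD of n = 2 in black. The axes start at 0. Snrpa1, Snrpd3 and U2af1 show the low wild type replicate 6 and the high knockout replicate 12, whereas U2af1l4 stays between 20.5 and 23.2 CPM.

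The hnRNPs are abundant nuclear proteins that package nascent transcripts. By FPKM, which is scaled to gene length, Hnrnpa1 was the highest of all members with a mean of 779.2, above Hnrnpa2b1 (402.2), Hnrnpf (387.6) and Hnrnpk (344.0). Of 21 tested Hnrnp genes 17 were above 0, and the median was 0.15. The knockout pair lay wholly above the wild type pair for 5 (25.4% of all genes) and below it for 1 (24.3% of all genes), no more than the background. Hnrnpab, an hnRNP that binds AU-rich RNA (gene 15384, chr11:51600100-51606881), had the widest difference, at 702, 438, 809.6 and 1246 CPM. The groups did not overlap, the means were 570.3 ± 187 and 1028 ± 309 CPM (SD, n = 2), and the log2 fold change was 0.85 (SE 0.31, edgeR p 0.0252, adjusted p 0.413). It was 0.55 without wild type replicate 6, 0.51 without knockout replicate 12 and 1.23 without wild type replicate 1. Its length of 2489 bases lies in the class in which the median of all genes was 0.0, and with the length trend removed it was at 0.79 (SE 0.28, edgeR p 0.0294). Its relative Hnrnpd, also known as AUF1 and a binder of AU-rich elements in cytokine transcripts, stood at 293, 167, 283.5 and 339 CPM, with overlapping groups (log2 0.44, SE 0.29). Hnrnpd has an effective length of 7484 bases and was at 0.84 (SE 0.37) with the length trend removed.

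Hnrnpa1 stood at 1336, 1177, 1525 and 1396 CPM, higher in both knockout libraries by a small margin (log2 0.22, SE 0.20, or 0.06 with the length trend removed). Hnrnpl and its paralogue Hnrnpll, which control the exons of the surface phosphatase CD45 in T cells, were both higher in both knockout libraries. Hnrnpl stood at 604, 434, 654 and 704 CPM (log2 0.39, SE 0.23). Hnrnpll stood at 70.35, 58.3, 79.65 and 73.3 CPM (log2 0.25, SE 0.21). Hnrnpc, which guards transcripts against inclusion of cryptic exons, had 0.39 (SE 0.23). The F and H group, which binds G-rich RNA, was near 0, with a median of 0.03 over 4 genes. Hnrnpul1 was the 1 Hnrnp gene lower in both knockout libraries, at 589, 565.6, 565.5 and 425 CPM (log2 -0.22, SE 0.22), and the first 3 of these values lie close together. Hnrnpa1l2-ps2 is a pseudogene copy of the Hnrnpa1 family and stood under 1 CPM in each library (log2 -0.43, SE 1.12). Reads that match Hnrnpa1 and its copies may have been split between them by the estimation of counts, so both values are uncertain.

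The promoters of these genes were read to see what the families share beyond the symbol. RefSeq promoter windows (GRCm38.p6) were found for 63 of the 74 tested members, and 6 motifs were searched on both strands in the 250 bases before the first listed start of each gene. The CCAAT box, spelled CCAAT, was found in 13 of 19 Hnrnp windows, against 47.6% of member windows and 37.1% of the 10244 windows of tested genes. The letters CCGGAAG, bound by ETS factors, were found in 6 of 7 Sf3 windows, against 27.0% of member windows and 13.9% of tested genes. In 10 Snrp windows there were 4 with CCAAT, 3 with CCGGAAG, 2 with the NRF1 motif and 1 with the E-box CACGTG. Among members these last 2 were found in 14.3% and 9.52% of windows, against 8.26% and 8.19% of tested genes. TATAAA was found in 9.52% of member windows (6.6% of tested genes) and the palindromic BANP motif in 0 of 63 (0.849% of tested genes). Each match is a run of letters and not a shown binding site, and no test was made. The 100 bases before the start are shown for 4 Hnrnp genes with CCAAT or its reverse complement ATTGG, for Snrpa with its 2 E-boxes and for Prpf19 with CCGGAAG and CCAAT, the motifs being in capitals. The Hnrnpa1 and Hnrnpa2b1 stretches lie inside the annotated genes, before starts that are not the outermost. All were picked after the values were seen, from the 21 members whose 100 bases overlap no exon of GENCODE M21.
Hnrnpab, minus strand, chr11:51606882-51606981: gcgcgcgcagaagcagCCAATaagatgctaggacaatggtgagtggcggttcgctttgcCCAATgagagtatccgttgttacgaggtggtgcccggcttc
Hnrnpa1, plus strand, chr15:103240297-103240396: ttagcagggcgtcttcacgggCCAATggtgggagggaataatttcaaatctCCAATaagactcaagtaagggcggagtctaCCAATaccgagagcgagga
Hnrnpa2b1, minus strand, chr6:51469895-51469994: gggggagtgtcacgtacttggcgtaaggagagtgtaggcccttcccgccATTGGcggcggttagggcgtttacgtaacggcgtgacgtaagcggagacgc
Hnrnpr, plus strand, chr4:136310842-136310941: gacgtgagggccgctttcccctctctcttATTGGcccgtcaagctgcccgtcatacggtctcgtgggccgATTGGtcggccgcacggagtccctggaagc
Snrpa, minus strand, chr7:27196272-27196371: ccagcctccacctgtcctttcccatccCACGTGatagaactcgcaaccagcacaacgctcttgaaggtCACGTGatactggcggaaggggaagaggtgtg
Prpf19, plus strand, chr19:10895131-10895230: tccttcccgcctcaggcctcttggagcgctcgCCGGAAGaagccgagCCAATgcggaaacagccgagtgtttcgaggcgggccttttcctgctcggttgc

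Of the 4 Hnrnp genes shown, Hnrnpab was at 0.85 and Hnrnpr, which stood at 148.5, 117.5, 124 and 122 CPM, was at -0.11 (SE 0.22, or 0.07 without wild type replicate 1). Hnrnpa2b1, the partner of Hnrnpa1 in the core hnRNP particle, lay between them at 1156, 784, 1091 and 1153 CPM (log2 0.21, SE 0.24, or -0.04 without wild type replicate 6).

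The SR proteins, which bind exonic enhancers through RNA recognition motifs and contact the spliceosome through their arginine and serine rich tails, had a median near 0. Of 11 tested Srsf genes 9 were above 0, with a median of 0.09 that was 0.01 with library size alone as the scaling and -0.07 without wild type replicate 6. None had the knockout pair wholly above the wild type pair (25.4% of all genes). The gap within wild type exceeded the gap between groups for 10 of 11 (47.1% of all genes). Srsf2 had the highest FPKM of the family (mean 192.2) and stood at 443.5, 313, 407 and 525 CPM (log2 0.30, SE 0.25). Srsf3, the smallest SR protein, had the highest fold change, at 296, 182, 283 and 362 CPM (log2 0.43, SE 0.28). In both genes wild type replicate 1 lay between the 2 knockout libraries. Srsf1, the SR protein tied to the methylated histone through the reader Psip1, stood at 564, 434, 533 and 531 CPM (log2 0.09, SE 0.22, or -0.08 without wild type replicate 6). Srsf1 has an effective length of 5489 bases and was at 0.36 (SE 0.21) with the length trend removed. Srsf12 was the 1 lower in both knockout libraries (24.3% of all genes), but at 1.42, 2.28, 1.22 and 1.03 CPM it was nearly silent (log2 -0.72, SE 0.62).

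SR genes are known for exons that send the transcript to nonsense-mediated decay, by which their proteins limit their own amount. In GENCODE M21, 9 of 11 Srsf genes list such a transcript, as do all 3 Ptbp and all 3 U2af genes, against 37 of 74 tested members and 28.8% of tested genes. Only 1 of 9 Sf3 genes and 4 of 12 Snrp genes list one. Counts per gene add the productive and the decaying transcripts together.

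The Prpf genes encode tri-snRNP proteins and further factors named after yeast mutants. Of 13 tested, 8 were above 0, with a median of 0.05 that was -0.02 with library size alone as the scaling. The tri-snRNP genes Prpf3, Prpf4, Prpf6, Prpf8 and Prpf31 had a median of 0.29. Prpf31, which bridges U4 and U6 to U5 and is mutated in an inherited retinal disease, had the highest fold change of the family, at 100.3, 50.4, 88.6 and 137 CPM (log2 0.58, SE 0.36), but its groups overlapped. It was 0.17 without wild type replicate 6, 0.24 without knockout replicate 12, 0.88 without knockout replicate 9 and 1.16 without wild type replicate 1. Prpf8, the large protein at the catalytic core, had the highest FPKM of the family (mean 81.7) and stood at 668, 551, 683 and 580.0 CPM. Its log2 fold change was 0.05 (SE 0.22), or -0.02 with library size alone as the scaling, while the median of all genes of 4 to 8 kb was -0.24, and with the length trend removed it was 0.43 (SE 0.20, edgeR p 0.0738). Prpf19, the ubiquitin ligase of the complex that activates the spliceosome, was higher in both knockout libraries at 137.5, 96.9, 141 and 194 CPM. Its log2 fold change was 0.51 (SE 0.27), and with the length trend removed it was 0.86 at edgeR p 0.0372 (adjusted p 0.434). Before that removal it was 0.28 without wild type replicate 6, 0.27 without knockout replicate 12 and 0.79 without wild type replicate 1. Prpf4b, a kinase that acts on tri-snRNP proteins, lay at the other end with 191, 149, 149 and 115 CPM (log2 -0.36, SE 0.24, or -0.11 with the length trend removed).

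**Figure D4:**
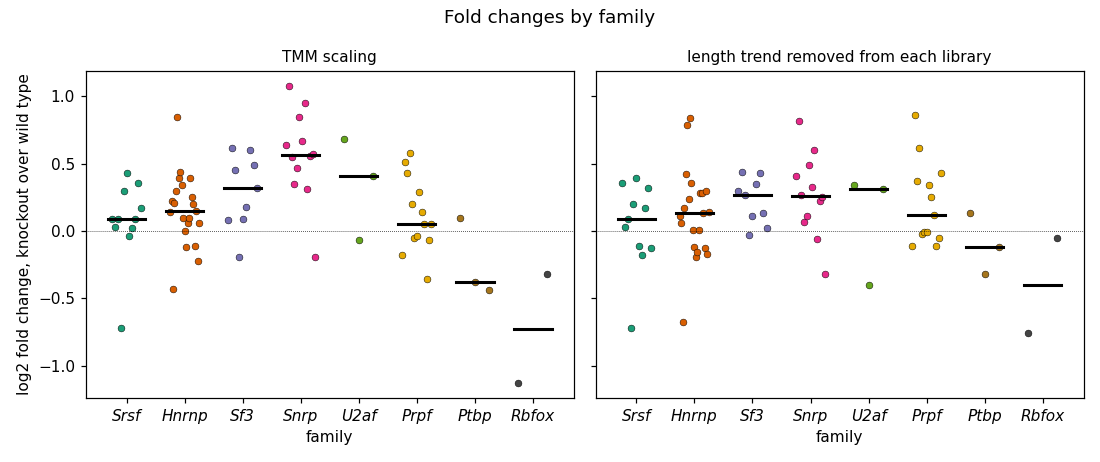
Each point is the log2 fold change of a tested member, by family, and black bars are family medians, on the left after TMM scaling and on the right with the length trend removed from each library. The Snrp median goes from 0.56 to 0.26 and the Ptbp median from -0.38 to -0.12, while those of Srsf and Hnrnp stay near 0.1.

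The PTB proteins repress exons by binding pyrimidine tracts, and Ptbp1 is the form that the reader Morf4l1 (MRG15) is known to bring to methylated gene bodies. Ptbp1 (gene 19205, chr10:79854432-79864435) had a mean FPKM of 302.5 and was level over the libraries, at 955.5, 847.5, 940.3 and 996 CPM (log2 0.10, SE 0.20, edgeR p 0.62). Ptbp3, a paralogue known from blood cells (gene 230257, chr4:59471868-59549378), was lower in both knockout libraries, at 372, 405, 342 and 228.5 CPM. The log2 fold change of Ptbp3 was -0.44 (SE 0.25, edgeR p 0.114, adjusted p 0.461), but -0.12 with the length trend removed, its effective length being 6959 bases. It was -0.18 without knockout replicate 12 and -0.74 without knockout replicate 9. Ptbp2, the neuronal form, was also lower at 17.8, 15.9, 15.4 and 10.5 CPM (log2 -0.38, SE 0.28, or -0.32 with the length trend removed). The count ratio of Ptbp1 to Ptbp3 was 2.57 and 2.09 in wild type and 2.75 and 4.36 in knockout libraries, so knockout replicate 12 alone lay far from the rest. The RBFOX genes, splicing factors of neurons and muscle, were nearly silent. Rbfox1 stood at 0.865, 3.39, 1.80 and 0.155 CPM in wild type replicates 1 and 6 and knockout replicates 9 and 12, and Rbfox2 between 1.03 and 1.62 CPM. Rbfox3 had a count of 1 in knockout replicate 12 and 0 elsewhere and did not pass the filter.

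Other genes of the pathway were taken from lists that do not contain the members. Of 28 tested genes of Sm-like proteins and snRNP assembly, edgeR called 0 in either direction and DESeq2 1 higher. At an unadjusted edgeR p under 0.05 there were 6 higher and 0 lower, against 6.23% and 5.73% of all genes. DESeq2 called 0.729% of all genes higher. Of these genes 24 were above 0, with a median of 0.44 (0.31 with the length trend removed), and 23 were lowest in wild type replicate 6, against 33.1% of all genes. Lsm5, a subunit of the Sm-like ring on U6 RNA, was that DESeq2 call, at 17.2, 10.4, 28.8 and 34.2 CPM (log2 1.19, SE 0.29, edgeR p 0.00386, adjusted p 0.327, DESeq2 adjusted p 0.0471). Without wild type replicate 1 edgeR also called it (log2 1.60, adjusted p 0.0433). Smn1, the core of the complex that loads the Sm ring, stood at 48.7, 36.6, 61.8 and 65.8 CPM (log2 0.58, SE 0.23, edgeR p 0.0354). Smn1 was at 0.33 with the length trend removed. Wdr77, the partner of the enzyme that methylates Sm proteins, stood at 55.9, 40.6, 73.6 and 89.5 CPM (log2 0.76, SE 0.24, edgeR p 0.0151). At 3587 bases Wdr77 was at 0.85 with the length trend removed. Without wild type replicate 6 it was at 0.55, and without wild type replicate 1 at 1.01. Of the 28 genes, the knockout pair lay wholly above the wild type pair for 13 and below it for 1, against 25.4% and 24.3% of all genes. The 13 include Lsm5, Smn1 and Wdr77, which were named for having the smallest p-values of the list.

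Of 79 tested genes of a wider spliceosome and splicing list, edgeR and DESeq2 called 0, and the median was 0.09. An unadjusted edgeR p under 0.05 was reached by 3 higher genes and 1 lower gene, smaller shares than the 6.23% and 5.73% over all genes, so the values below are a description. Txnl4a, a small U5 protein, stood at 129, 96.2, 162 and 214.5 CPM (log2 0.74, SE 0.25, edgeR p 0.0195). Rbm8a, a core protein of the exon junction complex, stood at 84.3, 67.2, 99.7 and 131 CPM (log2 0.60, SE 0.24, edgeR p 0.0367). Mbnl2, a muscleblind splicing regulator, was the 1 lower, at 64.0, 73.4, 47.6 and 30.15 CPM (log2 -0.82, SE 0.27, edgeR p 0.0159, or -0.64 with the length trend removed).

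The readers that connect the Setd2 mark to splicing were not called. Morf4l1 stood at 284, 235, 275 and 329 CPM (log2 0.22, SE 0.22). Psip1, which ties Srsf1 to the mark, stood at 266, 268, 231 and 210.3 CPM (log2 -0.28, SE 0.20), and Zmynd11, which links the mark to U5 proteins, at 131, 140.5, 115 and 83.5 CPM (log2 -0.46, SE 0.23). For Psip1 and Zmynd11 the knockout pair lay wholly below the wild type pair, as for 24.3% of all genes, without passing the test. Zmynd11 was at -0.24 without knockout replicate 12 and -0.68 without knockout replicate 9.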

How the data were processed

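The 4 libraries hold RNA of stimulated mouse CD4+ T cells. Per the labels' protocols, TRIzol was used to extract RNA and libraries were read on an Illumina HiSeq platform. The submitters' processing notes name Bowtie2, RSEM and the builds GRCm38.p6 and mm10, and give no versions. The authors deposited expected counts, which RSEM estimates and which need not be whole, beside an expression value with no unit in its header. That value was taken as FPKM made by the authors, from its relation to the counts. The authors' 4 columns of group averages were not used.

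Expected counts were rounded, filtered by filterByExpr (minimum count 10, leaving 12816 genes) and scaled by TMM (factors 1, 1.056, 0.998 and 0.949). The main test was edgeR's (4.0.16, with limma 3.58.1 and R 4.3.3) robust quasi-likelihood F test, which is two-sided. P-values were adjusted by Benjamini-Hochberg over every gene tested, at a threshold of 0.05, and the SE was derived from F. Totals of 17284613 to 20418766 counts and 2 residual degrees of freedom limit the precision. DESeq2 1.42.0, limma-voom, other scalings and filters, a loess trend on log2 effective length (span 0.5) removed as offsets, and leaving out each library were the alternatives. The edgeR step was tested on simulated data. Coordinates and promoters are RefSeq's for GRCm38.p6, where all 75 member IDs matched.

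Named genes were, per family, the tested members of highest and lowest fold change and of highest FPKM, members with an unadjusted p under 0.05, all members of families with 4 or fewer genes, the H3K36 methylation readers and, per other list, the 3 genes of smallest p. Others named were chosen after their values were seen. Members and lists were chosen with earlier results of these data known.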

Additional observations from a re-analysis of the deposited data

How the results depend on the processing

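No paired analysis was possible because no replicate number (1, 6, 9, 12) occurs in both groups. Over 12 alternatives, no member was called lower, and none was called higher except for the 2 called without wild type replicate 1, so that this count ran from 0 to 2 with a library left out. The lowest member median was 0.07, with wild type replicate 6 left out, and the highest 0.32, with wild type replicate 1 left out. With a library left out, family medians ran from 0.12 to 0.77 for U2af, from 0.33 to 0.87 for Snrp, from 0.17 to 0.53 for Sf3, from 0 to 0.32 for Hnrnp, from -0.07 to 0.27 for Srsf, from -0.02 to 0.20 for Prpf, from -0.65 to -0.13 for Ptbp and from -2.04 to 0.07 for Rbfox, whose genes were under 4 CPM in each library and absent at a minimum count of 50. The other splicing genes gave 1 higher by DESeq2 and from 0 to 1 higher with a library left out. Over all genes, calls were 88 higher and 97 lower by DESeq2 and 48 and 33 without a filter. With a library left out they ran from 0 to 98 higher and from 0 to 70 lower. The cause of these shifts was not tested. Of the 37 tested genes that the naming rule gave, 6 changed sign under at least 1 alternative, none of them called: Hnrnpa1l2-ps2, Prpf8, Rbfox1, Sf3b1, Snrpe and Snrpn. Other members named in the text also changed sign with a library left out: Hnrnpa2b1, Hnrnpf, Hnrnpk and Srsf1 without wild type replicate 6, Hnrnpr without wild type replicate 1 and Prpf6 without knockout replicate 9. Leaving out a library in fits with a lone library in a group assumes that it varies like the others.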
